A study of Caenorhabditis elegans with 12 samples.

Results

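The 9 genes described here decide whether germ cells of Caenorhabditis elegans go on dividing and whether they become sperm or oocytes. The stem cell decision is represented by glp-1 (WBGene00001609), fbf-1 (WBGene00001401), fbf-2 (WBGene00001402) and gld-1 (WBGene00001595). The sex decision is represented by tra-2 (WBGene00006605), fem-3 (WBGene00001413), tra-1 (WBGene00006604), fog-1 (WBGene00001481) and fog-3 (WBGene00001483). They were chosen by name, through their WormBase gene identifiers, and all 9 of 9 were found among the 20134 identifiers of the count table, which also holds 55259 genomic intervals. Names were paired with identifiers by the list that defines the set, since the table gives identifiers alone. What was counted is small RNA reads assigned to each gene, not its mRNA.

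Small RNA was sequenced from whole worms at the L4 larval stage, grown at 15 °C, before and after immunoprecipitation (IP) with an antibody against FLAG. The 4 groups hold 3 libraries each, with the letters A, B and C. One strain expresses 1xFLAG::CSR-1 and gave the CSR-1 inputs and CSR-1 IPs. The genotype of the other strain is WAGO-1::FLAG P3G with WAGO-3 P2G A3E, and it gave the inputs and IPs called WAGO-1 P3G here. Both strains thus carried a FLAG-tagged Argonaute, and bait, tag and WAGO-3 genotype cannot be told apart. Titles, sample names and the antibody field give the same assignment and set these groups. The free text of the descriptions goes against them, calling both sets of inputs immunoprecipitated and the WAGO-1 P3G IPs unprecipitated extract. WAGO-1 without the P3G change was not analysed here. Small RNA was enriched with a kit for the inputs only, which is part of every IP to input comparison. Nothing in the labels tells whether the 3 libraries of a group are separate cultures, so p-values measure only the spread between these libraries. Fewer germ cells and less small RNA per cell cannot be told apart in whole worms.

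Argonautes carry short guide RNAs to complementary transcripts. In the worm germline CSR-1 binds guides made mostly against genes that the germline expresses, and WAGO-1 belongs to a group of Argonautes that act in silencing. GLP-1, a Notch receptor, keeps germ cells dividing near the tip of the gonad. The PUF proteins FBF-1 and FBF-2 keep them undifferentiated by repressing mRNAs such as gld-1, whose product in turn moves cells into meiosis. The membrane protein TRA-2 restrains FEM-3, FEM-3 and its partners remove TRA-1, and TRA-1, a zinc-finger factor related to Gli, represses fog-1 and fog-3, which germ cells need to become sperm. Hermaphrodites make sperm at the L4 stage and switch to oocytes afterwards.

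Levels are CPM, the reads of a gene scaled to the reads a library had on any identifier or interval. Those totals ranged from 334088 to 533232 in the inputs, from 2405005 to 4908321 for CSR-1 IPs and from 7403373 to 9187525 for WAGO-1 P3G IPs. The inputs therefore set the precision, and fog-1, fog-3 and fem-3 had between 1 and 7 reads in each of them. Log2 fold changes come from an edgeR fit of all 12 libraries with TMM factors, which scale for composition, and stand with an approximate SE. The filter on low counts kept 10822 features, of which 9536 were identifiers, and a call means an adjusted p (Benjamini-Hochberg over those features) under 0.05. Of the 9 genes, 8 passed that filter and fog-3 did not. TMM places the identifiers at a median log2 of 0.26 for the CSR-1 IP over its input and -0.12 for the WAGO-1 P3G IP over its input. With library totals alone these medians were -0.16 and -0.71, so values relative to the median are given where the scaling matters.

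In the CSR-1 IP the 4 stem cell genes had log2 fold changes over input of 1.28 to 2.21, and the 4 tested sex genes 0.02 to 1.01. Among the 8 tested genes 6 were called higher in the CSR-1 IP than in its input, 0 were called lower, and fog-1 and tra-2 were not called. Of all features tested 37.5% were called higher and 33.6% lower (71.1% in all). In the WAGO-1 P3G IP glp-1, tra-1 and tra-2 were called higher, gld-1, fbf-1 and fbf-2 lower, and fog-1 and fem-3 were not called. The glp-1 and tra-2 calls ended with library totals alone. In that IP 34.2% of all features were called higher and 33.4% lower (67.5% in all). Most features thus moved, and the 8 genes were split much as all features were. The share of higher calls among all calls was 50.6% here, 28.8% with library totals alone and 73.6% with all reads of a library as its size. For the CSR-1 IP it was 52.7%, against 42.9% with library totals alone and 62.8% with all reads as size. The median log2 of the 8 genes was 1.14 in the CSR-1 IP and 0.09 in the WAGO-1 P3G IP, beside -0.08 and 0.12 over all features tested. Over the tested identifiers alone, which these genes belong to, the medians were 0.26 and -0.12.

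**Figure D1:**
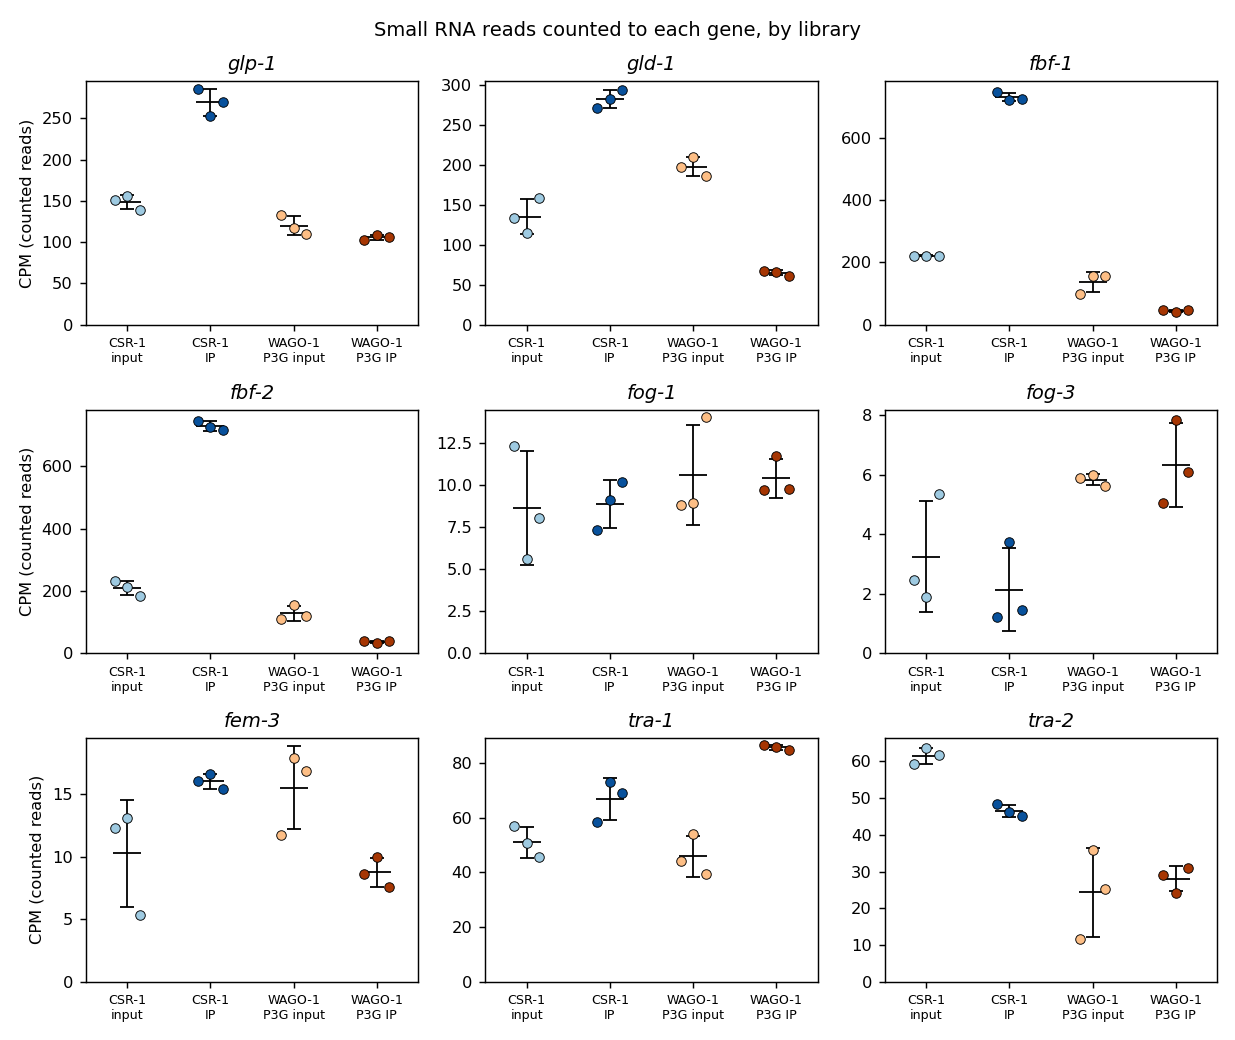
CPM of each gene in the 4 groups, with 1 point per library (A, B, C from left to right) and mean ± SD as bars, on linear axes that start at 0 and differ between genes. The fbf pair and gld-1 are highest in the CSR-1 IPs and lowest in the WAGO-1 P3G IPs, while tra-1 is highest in the WAGO-1 P3G IPs.

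The fbf genes had the steepest contrast of the set. For fbf-1, CPM was 222, 221 and 219.8 in CSR-1 inputs A, B and C against 747, 722 and 724 in the IPs of that strain. In the other strain it was 100.02, 156 and 158 in the inputs and 46.5, 40.3 and 46.5 in the IPs. The 4 groups did not overlap, and WAGO-1 P3G input A lay below the other inputs of its group. For fbf-2, the CSR-1 inputs held 232, 212 and 185 CPM and the CSR-1 IPs 746, 726 and 716. The WAGO-1 P3G inputs held 109, 156 and 121 CPM and the IPs 38.5, 33.1 and 39.6. The order of groups was the same for both genes, from CSR-1 IP through CSR-1 input and WAGO-1 P3G input to WAGO-1 P3G IP, with no overlap between neighbours. In the CSR-1 IP fbf-1 rose 4.42-fold over input (log2 2.14 ± 0.13 SE, n = 3 and 3, edgeR adjusted p = 1.62e-13) and fbf-2 rose 4.64-fold (log2 2.21 ± 0.13, adjusted p = 9.73e-14). Those values were higher than for 92.6% and 93.5% of tested identifiers. With all libraries thinned to the smallest they were lower, at log2 1.33 and 1.45, and still called. In the WAGO-1 P3G IP fbf-1 fell to 0.487 of input (log2 -1.04 ± 0.16, adjusted p = 3.49e-06) and fbf-2 to 0.437 (log2 -1.19 ± 0.16, adjusted p = 6.33e-07). Without WAGO-1 P3G input B these were -0.62 and -0.71, and fbf-1 was -0.63 without input C. Leaving out a CSR-1 input, not part of this comparison, also moved fbf-1 to -0.71 to -0.73 and fbf-2 to -0.87 to -0.89. With all reads of a library as its size the fbf-1 call ended (log2 -0.28, adjusted p = 0.102) and fbf-2 stayed called at -0.44 (adjusted p = 0.0194), while for fbf-1 relative to the median identifier the value was -0.99 there against -0.92 with TMM.

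The fbf pair are close copies that lie as neighbours on chromosome II, fbf-1 at II:6078263-6080843 and fbf-2 at II:6088863-6091480 (WBcel235, the assembly also called ce11), 8019 bp apart. How reads with several alignments were treated is not given in the sources used here, and reads shared by the copies cannot be assigned, so neither gene's count is certain to be its own. The pair's reads were split nearly evenly in the CSR-1 IPs: fbf-1 took 50.0% of 7329 reads in A (95% Wilson interval 48.9 to 51.2), 49.9% of 3481 in B (48.2 to 51.5) and 50.3% of 4940 in C (48.9 to 51.7). In the WAGO-1 P3G IPs fbf-1 took more than an even share, with 54.7% of 708 reads in A (51.0 to 58.3), 54.9% of 543 in B (50.7 to 59.0) and 53.98% of 791 in C (50.5 to 57.4). The mean share was 54.5% ± 0.468 there against 50.1% ± 0.210 with CSR-1 (SD, n = 3 each), a difference of 4.45 percentage points with no overlap. The 2-sided exact permutation test gave p = 0.1, the smallest that 3 against 3 allows (0.4 after Benjamini-Hochberg over 4 comparisons). The inputs, with 71 to 231 reads for the pair, spanned 47.9% to 56.6% and could not resolve such a difference. These intervals cover counting error only.

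**Figure D2:**
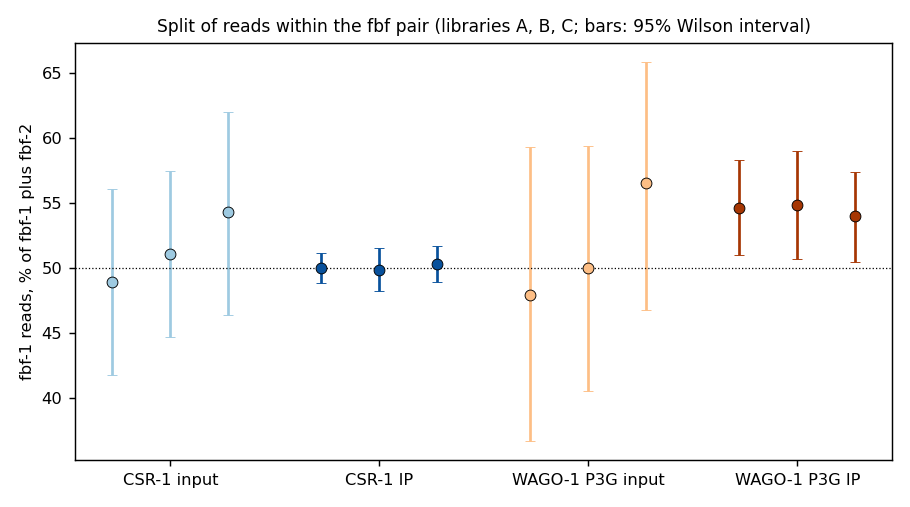
Share of fbf-1 among the reads of fbf-1 and fbf-2, in percent, for each library (A, B, C from left to right in each group), with 95% Wilson intervals and a dotted line at an even split. The CSR-1 IPs sit at 49.9% to 50.3% and the WAGO-1 P3G IPs at 53.98% to 54.9%, while the inputs have wide intervals.

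Small RNAs of gld-1, which codes for an RNA-binding translational repressor, went with the fbf pair in direction. The CSR-1 inputs held 133, 114 and 158 CPM and the CSR-1 IPs 271, 282 and 293. The WAGO-1 P3G inputs held 197, 209.5 and 186 CPM and the IPs 67.8, 66.6 and 61.4. No groups overlapped, and unlike the fbf pair gld-1 stood higher in the WAGO-1 P3G inputs than in the CSR-1 inputs. In the CSR-1 IP it rose 2.82-fold (log2 1.49 ± 0.13, adjusted p = 1.37e-10 from edgeR), above 76.9% of identifiers, and log2 0.72 with thinned libraries. In the WAGO-1 P3G IP it fell to 0.4996 of input (log2 -1.001 ± 0.13, adjusted p = 3.63e-07), a call that ended with all reads as size (log2 -0.25, adjusted p = 0.0982). Without WAGO-1 P3G input B the value was -0.64, and without CSR-1 input A, B or C it was -0.70, -0.67 and -0.69. Relative to the median identifier the fall was -0.88 with TMM and -0.96 with all reads as size.

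For the Notch receptor gene glp-1, CPM was 151, 156 and 139 in the CSR-1 inputs against 286, 253 and 269 in the IPs of that strain. It was 132, 117 and 109.9 in the WAGO-1 P3G inputs and 102, 109 and 106 in the IPs. The CSR-1 IPs stood above every other library, and the WAGO-1 P3G IPs lay just below their inputs. The rise with CSR-1 was 2.42-fold (log2 1.28 ± 0.13, adjusted p = 3.26e-09 from edgeR), and log2 0.74 with thinned libraries. With WAGO-1 P3G the fitted value was a rise of log2 0.42 ± 0.15 (adjusted p = 0.0143) although mean CPM was 120 ± 11.5 in the inputs and 106 ± 3.30 in the IPs (SD, n = 3 each). With library totals alone the sign turned (log2 -0.18, adjusted p = 0.2495), and with thinned libraries the call ended (0.32, adjusted p = 0.153). Leaving out any 1 of the 6 input libraries raised it to 0.66 to 0.81, and all reads as size to 1.17. Relative to the median identifier glp-1 was 0.54 higher with TMM and with library totals alone, and 0.46 higher with all reads as size.

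**Figure D3:**
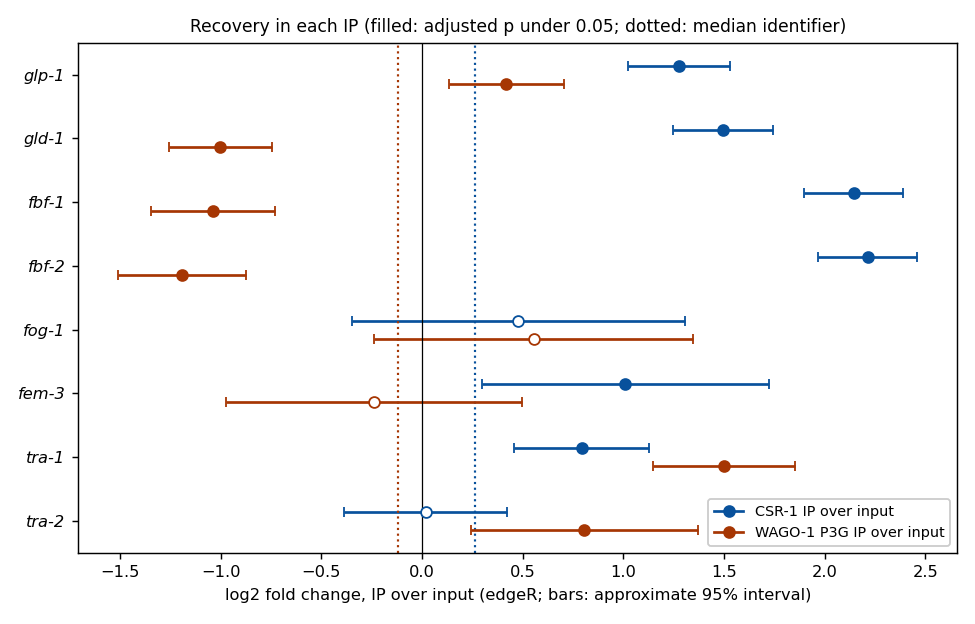
Log2 fold change of IP over input for the 8 tested genes, CSR-1 in blue and WAGO-1 P3G in brown, with approximate 95% intervals; filled points passed the adjusted p of 0.05 and dotted lines mark the median tested identifier of each IP (0.26 and -0.12). The colours lie on opposite sides of 0 for gld-1, fbf-1, fbf-2 and fem-3 (whose WAGO-1 P3G point, -0.24, was not called), and tra-1 is the gene farthest to the right with WAGO-1 P3G.

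Among the sex genes, tra-1 was called higher in both IPs, and by more in the WAGO-1 P3G IP. Its CPM was 56.8, 50.6 and 45.6 in the CSR-1 inputs against 58.3, 73.2 and 69.1 in the IPs of that strain. The WAGO-1 P3G inputs held 44.1, 53.9 and 39.4 CPM and the IPs 86.7, 85.6 and 84.8. The WAGO-1 P3G IPs stood above every other library and varied little, and the inputs of the strains overlapped. The gene rose 2.83-fold in the WAGO-1 P3G IP (log2 1.502 ± 0.18, adjusted p = 9.07e-08 from edgeR), above 87.4% of identifiers, with log2 0.91 under library totals alone and 2.25 with all reads as size. In the CSR-1 IP the rise was 1.73-fold (log2 0.79 ± 0.17, adjusted p = 0.000231), above 59.8% of identifiers. That call ended with library totals alone (log2 0.38, adjusted p = 0.0694), with the CSR-1 libraries fitted alone (0.41, adjusted p = 0.0751) and with all libraries thinned to the smallest (0.21, adjusted p = 0.489). It was kept at 0.53 without CSR-1 IP B and at 0.47 without WAGO-1 P3G IP A, B or C.

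Of the 9 genes, only the feminizing gene tra-2 had its highest mean CPM in the CSR-1 inputs. Its CPM was 59.3, 63.8 and 61.7 in the CSR-1 inputs against 48.3, 46.2 and 45.2 in the IPs of that strain. In the WAGO-1 P3G strain it was 11.8, 35.9 and 25.4 in the inputs and 29.2, 24.2 and 30.9 in the IPs. The CSR-1 IPs lay below their inputs without overlap, while the WAGO-1 P3G groups overlapped, with 4, 12 and 9 reads in the inputs. In the CSR-1 IP the fitted value was log2 0.02 ± 0.21 (approximate 95% interval -0.39 to 0.42, adjusted p = 0.943 from edgeR). The WAGO-1 P3G IP was called higher, by log2 0.81 ± 0.29 (adjusted p = 0.0163), but mean CPM was nearly level at 24.3 ± 12.1 and 28.1 ± 3.496, and the call ended with library totals alone (log2 0.21, adjusted p = 0.538) and with thinned libraries (0.45, adjusted p = 0.354). It was larger without WAGO-1 P3G input B (1.51, adjusted p = 0.000754) and with all reads as size (1.56). Leaving out a CSR-1 input gave 1.11 to 1.13.

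For fem-3, whose product promotes male and sperm fates, the CSR-1 inputs held 5, 7 and 2 reads and the WAGO-1 P3G inputs 4, 6 and 6. CPM was 12.4, 13.1 and 5.36 in the CSR-1 inputs against 16.1, 16.6 and 15.5 in the IPs of that strain. The WAGO-1 P3G inputs held 11.8, 18.0 and 16.9 CPM and the IPs 8.64, 9.995 and 7.62. The IPs of each strain did not overlap their own inputs, and CSR-1 input C lay far below A and B. The rise in the CSR-1 IP was called (log2 1.01 ± 0.36, adjusted p = 0.0161 from edgeR) and ended in 4 of 15 alternatives, library totals alone among them (log2 0.59, adjusted p = 0.155). In the WAGO-1 P3G IP fem-3 was not called (log2 -0.24 ± 0.37, approximate 95% interval -0.97 to 0.50, adjusted p = 0.581).

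The sperm-fate genes fog-1 and fog-3 had the fewest reads. FOG-1 is an RNA-binding protein of the CPEB family and FOG-3 belongs to the Tob family. For fog-1 CSR-1 inputs held 5, 3 and 3 reads and CSR-1 IPs 36, 22 and 35. There were 3, 3 and 5 in the WAGO-1 P3G inputs and 81, 87 and 90 in the IPs. In CPM all neighbouring groups overlapped, with means from 8.67 ± 3.41 to 10.6 ± 2.99 (SD, n = 3 each). In the main fit no comparison of fog-1 passed the test: log2 was 0.48 ± 0.42 in the CSR-1 IP (adjusted p = 0.322 from edgeR) and 0.55 ± 0.40 in the WAGO-1 P3G IP (adjusted p = 0.234). With all reads as size the latter was called higher (log2 1.30, adjusted p = 0.00387). The input counts leave ratios of counted reads between 0.551 and 2.14 open for the former and between 0.532 and 1.97 for the latter (exact 95% counting intervals).

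For fog-3 there were 1, 1 and 2 reads in CSR-1 inputs, 6, 9 and 5 in CSR-1 IPs, 2, 2 and 2 in the WAGO-1 P3G inputs and 42, 58 and 56 in the WAGO-1 P3G IPs. The IPs of the strains did not overlap in CPM, at 1.22 to 3.74 with CSR-1 and 5.04 to 7.83 with WAGO-1 P3G. The ratio of counted reads between those IPs was 3.36 (exact 95% counting interval 2.104 to 5.66). When no filter on low counts was applied, edgeR gave log2 1.89 ± 0.37 for that comparison (adjusted p = 1.18e-06 over 45440 features). IP over input was not called for either strain there (log2 0.20 ± 0.83 with CSR-1, adjusted p = 1, and 1.24 ± 0.59 with WAGO-1 P3G, adjusted p = 0.157).

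**Figure D4:**
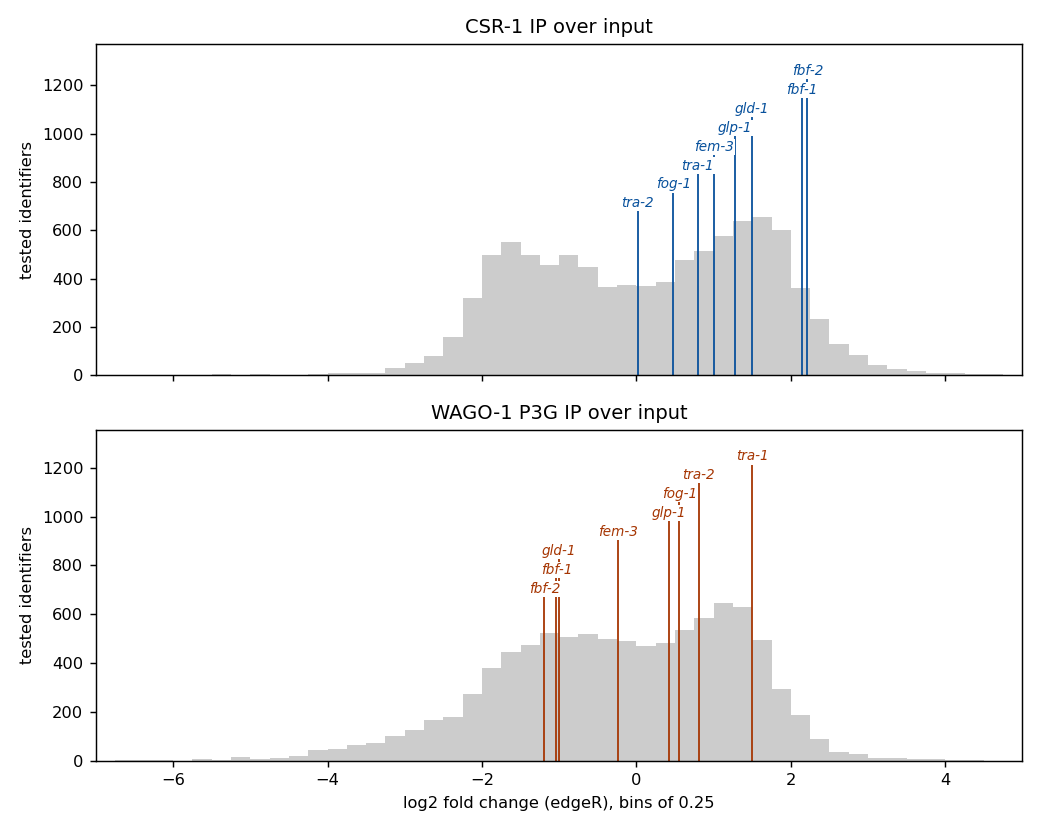
Histograms of the log2 fold change of all 9536 tested identifiers in each IP over its input, in bins of 0.25, with the 8 tested genes as vertical lines whose heights only separate the labels. The fbf pair lies in the right flank for CSR-1 and left of the centre for WAGO-1 P3G, and tra-1 lies in the right flank for WAGO-1 P3G.

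The IPs were also set directly against each other, which leaves the enrichment step of the inputs out. Of the 8 genes 6 were lower in the WAGO-1 P3G IP, 1 was higher and fog-1 was not called, where 44.6% of all features were called lower and 42.3% higher (86.9% in all). The fbf genes were 15.4-fold and 18.4-fold lower for fbf-1 and fbf-2 (log2 -3.95 ± 0.12 and -4.20 ± 0.12, adjusted p = 2.26e-20 and 8.91e-21 from edgeR), and only 5.34% and 3.61% of identifiers had lower values. Next came gld-1, 4.05-fold lower (log2 -2.02 ± 0.10), and glp-1, 2.40-fold lower (log2 -1.26 ± 0.10), which was -0.61 with thinned libraries and -0.81 to -0.84 without CSR-1 IP A or WAGO-1 P3G IP A or C. Both fem-3 and tra-2 were lower by less, with log2 -0.79 ± 0.20 and -0.64 ± 0.15. The tra-2 call ended without CSR-1 IP A or C, without WAGO-1 P3G IP A, B or C, and with thinned libraries (log2 -0.12 to -0.45). The 1 higher gene was tra-1 (log2 0.46 ± 0.11, adjusted p = 0.000501), a call that ended with all reads as size (0.22, adjusted p = 0.0789). It was larger without any 1 of the 6 IP libraries (0.75 to 0.89). For fog-1 the value was 0.33 ± 0.21 (approximate 95% interval -0.08 to 0.74), and 4 of 14 alternatives called it higher (0.47 to 0.65).

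Whether the baits differed in recovery beyond their inputs was asked from the difference of the log2 enrichments, WAGO-1 P3G minus CSR-1, which shares its libraries with the comparisons above. Of the 8 genes 5 were called lower and 1 higher, where 40.0% of all features were called lower and 33.9% higher (73.9% in all). The differences were -3.18 ± 0.21 for fbf-1 and -3.41 ± 0.21 for fbf-2 (adjusted p = 7.07e-13 and 2.63e-13 from edgeR), and -2.50 ± 0.18 for gld-1 (adjusted p = 8.00e-12). The median identifier stood at -0.75, and glp-1, at -0.86 ± 0.20 (adjusted p = 0.000500), lay beside it, with 48.5% of identifiers below. The glp-1 call ended without any of WAGO-1 P3G IP A, B or C (-0.41, -0.46 and -0.45) and with thinned libraries (-0.43), and the value was -0.44 and -0.57 without CSR-1 IP A and C. For tra-1 the difference was 0.71 ± 0.26 (adjusted p = 0.0181), which is 1.46 above the median identifier. It was no longer called with library totals alone (0.53, adjusted p = 0.0743) or with no filter (0.79, adjusted p = 0.112), and was 1.12 to 1.13 without WAGO-1 P3G IP A, B or C. For tra-2 it was 0.79 ± 0.36 (adjusted p = 0.0515), not called, and 1.54 above the median identifier; 14 of 21 alternatives called it. The fem-3 difference of -1.25 ± 0.54 (adjusted p = 0.0400) was no longer called in 11 of 14 alternatives, among them the fits without any of the 6 input libraries (-0.84 to -1.35). The fog-1 difference was 0.07 ± 0.61 (approximate 95% interval -1.13 to 1.28).

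Before any IP the strains already differed at some of these genes. In the WAGO-1 P3G inputs 3 of the 8 genes were lower, 1 was higher and 4 were not called, where 18.8% of all features were called lower and 19.6% higher (38.4% in all). With all reads as size 18.0% of calls were higher in place of 51.0%, and the identifier median moved from 0.09 to -0.54. The largest difference was at tra-2, at 0.371 of the CSR-1 inputs (log2 -1.43 ± 0.32, adjusted p = 0.000887 from edgeR), with only 8.92% of identifiers lower. It was followed by fbf-2 and fbf-1 at 0.576 and 0.588 (log2 -0.80 ± 0.17 and -0.77 ± 0.16, adjusted p = 0.000466 and 0.000601). The higher gene was gld-1 (log2 0.48 ± 0.15, adjusted p = 0.0155), whose sign turned with all reads as size (-0.12, adjusted p = 0.562). Its call also ended with no filter, and without CSR-1 input A or B or WAGO-1 P3G input A or B (0.35 to 0.44). For glp-1 the value was -0.41 ± 0.17 (adjusted p = 0.0608), and it was called lower with all reads as size (-0.999, adjusted p = 3.17e-05) and with identifiers alone (-0.48, adjusted p = 0.0220). The values for tra-1, fem-3 and fog-1 were -0.25 ± 0.24, 0.46 ± 0.50 and 0.26 ± 0.57, none of them called. With all reads as size tra-1 was called lower (-0.84, adjusted p = 0.00682), and the called differences of tra-2, fbf-2 and fbf-1 were -2.02, -1.39 and -1.36.

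The groups also differed in how the set's reads were divided. Summed over the 9 genes, CPM was 849 ± 28.5 in the CSR-1 inputs, 2152 ± 26.03 in the CSR-1 IPs, 686 ± 70.3 in the WAGO-1 P3G inputs and 392 ± 3.18 in the WAGO-1 P3G IPs (SD, n = 3 each). The fbf pair made up 67.8% ± 0.636 of that sum in the CSR-1 IPs and 20.8% ± 1.66 in the WAGO-1 P3G IPs, from 50.7% ± 1.58 and 38.6% ± 4.30 in the inputs. The share of tra-1 went from 5.99% ± 0.472 to 3.11% ± 0.394 with CSR-1 and from 6.68% ± 0.730 to 21.9% ± 0.246 with WAGO-1 P3G. These shares do not depend on the scaling between libraries. They are not corrected for gene length, so they compare groups and not genes.

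**Figure D5:**
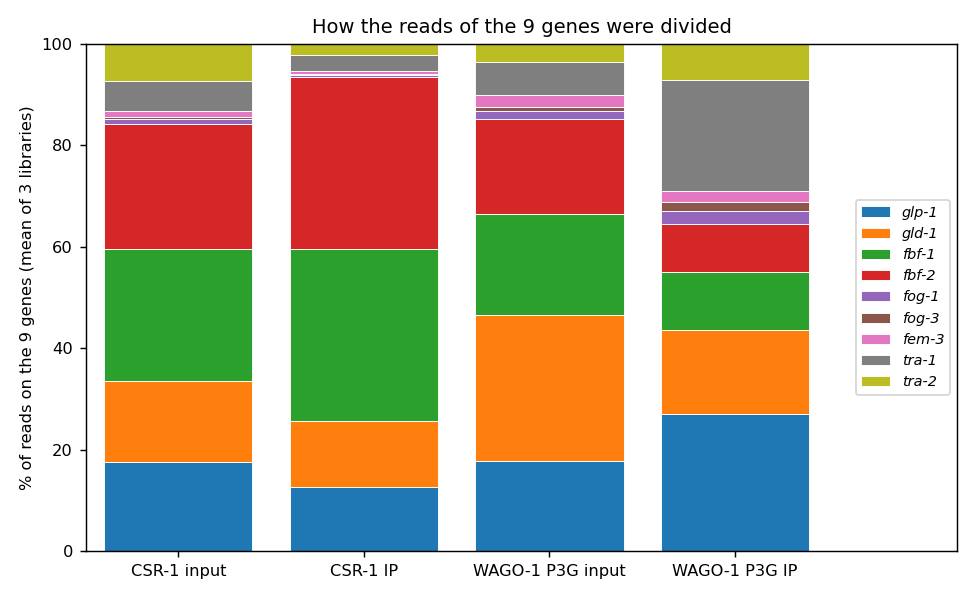
Stacked bars of the mean percent of the 9 genes' summed reads that each gene took in each group (n = 3 libraries), not corrected for gene length. The fbf pair fills 67.8% of the CSR-1 IP bar and 20.8% of the WAGO-1 P3G IP bar, and tra-1 grows to 21.9% in the latter.

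By position the other genes were glp-1 at III:9092241-9099698, tra-1 at III:11170890-11195201, tra-2 at II:6955384-6965673, fem-3 at IV:9104966-9107607, fog-1 at I:3211046-3217366, gld-1 at I:7695681-7698222 and fog-3 at I:10016765-10018121 (WBcel235 gene spans). Other RefSeq genes overlapped 4 of the 9 spans, each at an end: rom-5 by 79 bp at fog-1, ceh-38 by 26 bp at tra-2, ZK507.1 by 18 bp at glp-1 and H12I13.6 by 15 bp at fbf-1. Genomic intervals of the table lay over 5 of the genes, 30 of them over tra-1, 11 over fog-1, 4 over tra-2, 3 over glp-1 and 2 over fem-3, and 0 passed the filter. The interval with the most reads was III:11171751-11171936 (-) within tra-1, chosen after its values were seen. It held 2, 5 and 1 reads in CSR-1 inputs, 12, 10 and 1 in the IPs of that strain, 1, 1 and 3 in the WAGO-1 P3G inputs and 17, 32 and 19 in the WAGO-1 P3G IPs. Its reads are few beside the 722, 634 and 779 counted to tra-1 itself in the last group.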

How the data were processed

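The authors deposited raw counts, with no normalization, of small RNA reads per WormBase identifier or interval. The submitters' processing notes name HTSeq 0.11.2, cutadapt 2.3, Bowtie 1.2.3, SAMtools 1.9 and build ce11. The sources used here do not give their roles, the strand setting or the treatment of reads with several alignments. The count of non-unique alignments is listed as 0. Total reads were 878241 to 1373120 per input, 3321443 to 6131378 per CSR-1 IP and 10952884 to 13473204 per WAGO-1 P3G IP, of which 19.9% to 74.1% lay on no feature and were left out.

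Counts were fitted with edgeR 4.0.16 under R 4.3.3 (TMM factors, filterByExpr with the groups, quasi-likelihood F tests, 1 mean per group, 12 libraries, 8 residual degrees of freedom), after a test on simulated data. SE is the log2 fold change over the square root of F, and approximate intervals are 1.96 SE. Alternatives were median-of-ratios factors, library totals, all reads as size, no filter, identifiers alone, DESeq2 1.42.0, the compared groups alone, binomial thinning, replicate blocks and leaving out each library. All 9 genes were named by rule. Members and lists were chosen with earlier results of these data known. Lists of other pathway genes and of cell type markers, and a search for genes of similar pattern, were not used, since 0 identifiers outside the set could be paired with symbols here.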

Additional observations from a re-analysis of the deposited data

Results flagged for a closer look

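For 6 of the genes the effect of IP over input differed between the strains by a test of the difference itself, the interaction contrast of the edgeR fit. These are 6 of 8 tested, where 73.9% of all features were called, so the count is near the background. The WAGO-1 P3G minus CSR-1 log2 enrichment was -3.41 for fbf-2, -3.18 for fbf-1, -2.50 for gld-1, -1.25 for fem-3, -0.86 for glp-1 and 0.71 for tra-1. The median identifier stood at -0.75, and glp-1 lay beside it, with 48.5% of identifiers below. The call was lost in 11 of 14 alternatives for fem-3, 4 of 21 for glp-1 and 2 of 21 for tra-1, and in 0 of 21 for fbf-1, fbf-2 and gld-1. For gld-1, fbf-1 and fbf-2 the single IPs were called in opposite directions. For tra-1 and glp-1 both IPs were called higher in the main fit and differed in size. With library totals alone glp-1 in the WAGO-1 P3G IP turned sign (log2 -0.18), and the tra-1 call in the CSR-1 IP ended (0.38). For fem-3 the CSR-1 IP was called and the WAGO-1 P3G IP was not. Bait, tag and strain cannot be told apart in these differences.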

How the results depend on the processing

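The number of genes called stayed within 1.5 times its main value in all 5 comparisons under every alternative run. That limit is wide for 8 genes, and the number leaves out direction. In the WAGO-1 P3G IP 3 genes were called higher and 3 lower, against 4 and 1 with all reads as size. In the inputs 1 was called higher and 3 lower, against 0 and 5 with all reads as size. Over the single genes 784 values were recomputed. Of these 719 kept their direction and side of the threshold or were called in neither fit, 41 lost a call and 22 gained one. The other 2 were called in the main fit and turned sign. They were glp-1 in the WAGO-1 P3G IP with library totals alone (log2 -0.18) and gld-1 in the inputs with all reads as size (-0.12). Some values called in neither fit also turned sign and stand within the 719. An example is tra-2 in the CSR-1 IP (0.02, and -0.40 with library totals alone). The values of fbf-1, fbf-2 and gld-1 in the CSR-1 IP, in the direct comparison of the IPs and in the difference of enrichments were called in the same direction in every alternative, as was tra-1 in the WAGO-1 P3G IP. The lowest and highest values of fbf-1 in the difference were -3.36 and -2.70.

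With the letter as a replicate block 6, 6, 4, 7 and 6 genes were called for the CSR-1 IP, the WAGO-1 P3G IP, the inputs, the IPs and the difference, the same counts as without it. With strain and letter as the replicate block the difference called 7, tra-2 being added (log2 0.80, adjusted p = 0.0335 from edgeR), and the IPs over input called 6 and 6. Deviations of same-lettered input and IP correlated at 0.299, 0.191 and 0.0374 for CSR-1 and at 0.0195, 0.00128 and -0.00823 for WAGO-1 P3G, and not every library correlated best with its own letter. The labels give a shared letter only, so the letters were not taken as pairs.

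Over all features the calls between the IPs were 9403, and 15728 with no filter and 5202 after thinning. Thinning also left 4733 calls of 7698 for the CSR-1 IP, 4296 of 7306 for the WAGO-1 P3G IP and 4825 of 7997 for the difference. It left fewer features to test and fewer reads in each. In fits without an IP library fewer features passed the filter, and fem-3 and fog-1 were tested in none of these 6 fits. In fits without an input library more features passed, 12904 to 13013. The WAGO-1 P3G IP then had a median log2 over all features of 0.47 to 0.53, against 0.12 in the main fit. Input depth limits fog-1, fog-3 and fem-3, with 4 to 16 reads over the 3 inputs of a strain.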
